A study of Mus musculus with 2 samples.

Results

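Among Tregs sorted from mouse spleen as negative for a PPARg reporter, 141 cells carried Klrg1 transcripts. They were selected on that count: a cell belongs to them if 10% or less of its UMIs came from mitochondrially encoded genes and at least 1 raw UMI mapped to Klrg1. A UMI (unique molecular identifier) stands for 1 captured transcript. The 141 cells were 5.36% of the 2633 kept cells of their library (exact binomial interval 4.53 to 6.28%) and came from 4252 kept cells in all. The study had 2 libraries, 1 per group, both of CD4 Tregs from the spleens of male B6 Pparg-Tdt.Foxp3-Gfp mice, 8 weeks of age, in which a red reporter follows Pparg and a green one Foxp3. For each sort 2 or 3 mice were pooled, and no other treatment or allele is named. The libraries are called PPARg-negative and PPARg-low, as their labels have it, although the deposited files of the second carry the tag pos. In the PPARg-low library 899 of 1619 kept cells (55.5%) met the same rule. There is 1 library per group and hence no replicate check on any difference. No p-value is given, every interval is a 95% interval covering counting error only, and library and group cannot be told apart.

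Regulatory T cells, or Tregs, are CD4 T cells under the control of Foxp3 that hold other immune cells in check. KLRG1 (killer cell lectin-like receptor G1) is an inhibitory receptor of T and NK cells that binds cadherins on epithelial and other cells and carries a motif that recruits phosphatases. On Tregs it is known as a marker of highly activated, terminally differentiated cells, which are common in barrier tissues and visceral fat and scarce in lymphoid organs. PPARg is a nuclear receptor of lipid metabolism that Tregs of visceral fat use. Klrg1 (ENSMUSG00000030114) is a protein-coding gene on the minus strand of mm10 chromosome 6, from 122270596 to 122282882.

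The 141 cells held 314 Klrg1 UMIs, with 1 UMI in 72 cells, 2 in 30, 3 in 15 and 4 or more in 24, up to 13 in 1 cell. Just outside the rule lay the 2492 other kept cells, at 0. Because the 141 cells were selected on this gene, its level is a description, and Klrg1 was left out of every list and call. The Klrg1-positive PPARg-low cells held 2454 Klrg1 UMIs in 899 cells, with 1 UMI in 373 of them and 4 or more in 222. Per 1e6 UMIs (CPM) the level was 1083 in the first and 1483 in the second group. Pparg had 0 UMIs in the 141 cells and in the 2492 others, and 35 in the Klrg1-positive PPARg-low cells. For the 141 cells a count of 0 allows a share of cells with a Pparg UMI of up to 2.58% by the exact binomial bound.

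The 141 cells were T cells by their transcripts. Genes of T cell and Treg identity, such as Cd3e, Ikzf2 and Tnfrsf18, gave 2727 UMIs, in 140 of the 141 cells. Foxp3 itself, on whose reporter both libraries were sorted, is captured poorly here: 6 of the 141 cells and 135 of the 2492 others had a UMI of it, with a CPM ratio of 0.829 (0.299 to 1.85). KLRG1 also marks NK cells and effector CD8 T cells, whose markers gave few UMIs. Of 8 NK cell markers 6 were at 0 and the others gave 2 UMIs, and Cd8a was found in 1 cell, against Cd4 in 53. The CD8 T cell list gave 12 UMIs in 8 cells. Of 10 B cell markers 7 were at 0, but Cd79b, a B cell receptor subunit, had 28 UMIs in 23 cells and a CPM ratio of 5.20 (3.30 to 7.96) over the other cells, with Cd79a at 1 UMI. The whole B cell list was found in 18.4% of the 141 cells, 5.06% of the other PPARg-negative and 6.79% of the Klrg1-positive PPARg-low cells. Of 9 myeloid markers 7 were at 0, and nearly all of that list's 82 UMIs were Cst3 (77 UMIs), which T cells also express; the list was found in 42.6, 26.6 and 43.3% of cells in that order. The part of these transcripts in the results below was not tested. Scrublet marked 1 of the 141 cells as a doublet, and 1 had a barcode sequence that also occurs in the other library.

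Depth and RNA composition differed between the groups. The 141 cells had a median of 1691 UMIs per cell (581 to 10272), against 2192 in the other PPARg-negative cells and 1564 in the Klrg1-positive PPARg-low cells. Ribosomal protein genes, 86 in number, took a median of 15.6% of UMIs in the 141 cells (8.19 to 50.5%), 35.0% in the other PPARg-negative cells and 13.3% in the Klrg1-positive PPARg-low cells. The median mitochondrial share was 3.54, 2.49 and 4.81% in the same order, and that of the nuclear RNA Malat1 4.21, 2.84 and 5.60%. Cells with under 20% ribosomal protein UMIs are called ribosome-poor below and the rest ribosome-rich. Of the 141 cells 95 (67.4%, 59.0 to 75.03%) were ribosome-poor, of the other PPARg-negative cells 528 of 2492 (21.2%) and of the Klrg1-positive PPARg-low cells 62.5%. Values within these classes therefore stand beside the main results where given, and the part of RNA quality in the difference between the classes was not tested.

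**Figure D1:**
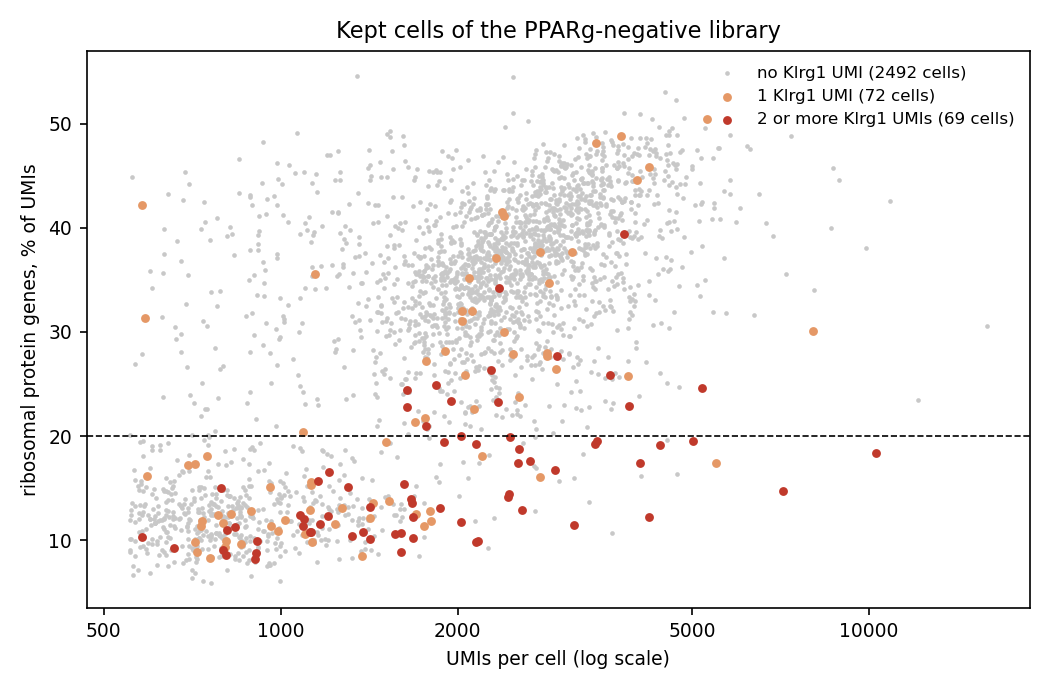
Each point is 1 kept cell of the PPARg-negative library, by UMIs per cell (log scale) and the percentage of its UMIs from ribosomal protein genes, coloured by its Klrg1 UMIs; the dashed line is the 20% limit. Of the 141 cells with Klrg1 UMIs 95 lie below the line, and 41 of the 83 ribosome-poor cells with 1500 or more UMIs carry Klrg1.

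Klrg1 transcripts were concentrated in ribosome-poor cells of this library, and more so in the deep ones. A Klrg1 UMI was found in 95 of 623 ribosome-poor cells (15.2%, 12.5 to 18.3%) and 46 of 2010 ribosome-rich cells (2.29%, 1.68 to 3.04%). When every cell with 750 or more UMIs was thinned to 750, the shares were 72 of 422 (17.1%, 13.6 to 21.0%) and 14 of 1972 (0.710%, 0.389 to 1.19%), and 86 of 2394 (3.59%) over both. Among ribosome-poor cells with 1500 or more UMIs, 33 of 83 (39.8%, 29.2 to 51.1%) still had a Klrg1 UMI at 750 UMIs (49.4% without thinning), against 39 of 339 (11.5%, 8.31 to 15.4%; 12.98% without thinning) of those with 750 to 1500. That gap stood at equal depth. The ribosome-rich cells showed no such step, at 1 of 189 and 13 of 1783. In the PPARg-low library the thinned shares were 53.1% for the ribosome-poor class and 29.4% for the other, and 54.0 and 51.0% in its ribosome-poor cells below and above 1500 UMIs.

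Against the other cells of their own library the 141 cells stood out by genes of activated and tissue-homing Tregs: granzyme B, the chemokine receptors Ccr2, Ccr3 and Cxcr3, the integrin Itgae, calcium-binding S100 proteins and galectins were higher, and genes of resting, recirculating Tregs were lower. A gene was called higher at a CPM ratio of at least 1.5, or lower at the inverse, if its interval lay wholly on the same side of 1. Calls were made among genes with 50 or more UMIs over both groups. Of 7205 such genes 1066 (14.8%) were called higher in the 141 cells and 221 (3.07%) lower, with a median log2 ratio of 0.22. Scaling moved that split: with ribosomal and mitochondrial genes left out of the CPM 594 genes were higher and 421 lower, and with ratios set against the all-gene median 660 and 435. Within ribosome-poor cells 246 of 2191 genes (11.2%) were higher and 195 (8.90%) lower, with a median of 0.04, and within ribosome-rich cells 310 of 6671 (4.65%) were higher and 52 (0.779%) lower, with a median of 0.16. The cells were split on a count of the same matrix, so all these values are descriptions.

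The leading gene was Gzmb, which encodes the granule protease granzyme B, used by killer lymphocytes and by some Tregs to kill target cells. The 141 cells held 250 Gzmb UMIs, in 43 cells and up to 44 in 1 cell, and the 2492 others held 192, or 862 against 34.2 CPM. That is a ratio of 25.2 (20.8 to 30.5), with 27.6 (19.4 to 39.2) in ribosome-rich and 5.48 (4.31 to 6.999) in ribosome-poor cells. At 750 UMIs per cell 23.3% of the Klrg1-positive (16.3 to 31.5%; 30.5% without thinning) and 1.28% of the other cells had a Gzmb UMI (2.25% without thinning), so most Klrg1-positive cells had none at this depth. Other genes of suppressive function went the same way. Fgl2, which encodes the secreted suppressor fibrinogen-like protein, had a ratio of 14.6 (10.4 to 20.4), and 3.30 (2.19 to 4.998) in ribosome-poor cells. Ctla4, the inhibitory receptor that strips costimulatory ligands from antigen-presenting cells, had 3.52 (2.93 to 4.20), and 1.34 (1.07 to 1.67) in ribosome-poor cells. Of 10 measured suppressive mediators 8 were higher and 0 lower, with a median log2 ratio of 1.83 against 0.22 over all genes. In ribosome-poor cells 3 of 6 were higher and 1 lower, and in ribosome-rich cells 5 of 7 were higher and 0 lower. The shares of all genes that were higher were 14.8, 11.2 and 4.65% in that order, and of those lower 3.07, 8.90 and 0.779%. Il10, the suppressive cytokine gene, had 3 UMIs in the 141 cells and 4 in the others, too few for a call.

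Homing receptors were the next group. Among chemokine and egress receptors, 7 of the 12 with enough UMIs were higher and 1, Ccr7, was lower, with a median log2 ratio of 1.05, against the 14.8 and 3.07% over all genes. Within the classes the count was not one-sided. In ribosome-poor cells 2 of 8 were higher and 2 lower, at a median of 0.32, against 11.2 and 8.90% of all genes there. In ribosome-rich cells 2 of 10 were higher and 2 lower, at 0.34, against 4.65 and 0.779% of all genes there. Ccr2, a receptor for inflammatory monocyte chemoattractants, had 123 UMIs in 54 of the 141 cells and 249 UMIs in the others, a ratio of 9.55 (7.63 to 11.9). Its ratio was 11.1 (6.23 to 19.0) in ribosome-rich and 1.76 (1.37 to 2.25) in ribosome-poor cells. Ccr3, an eotaxin receptor best known from eosinophils, had 27 against 31 UMIs and a ratio of 16.8 (9.67 to 29.2), and 2.60 (1.42 to 4.71) in ribosome-poor cells. Cxcr3, which follows interferon-induced chemokines, was at 5.94 (4.56 to 7.67), Ccr4 at 5.22 (3.37 to 7.88) and Ccr6 at 6.19 (3.73 to 9.91). In ribosome-poor cells Cxcr3 was at 1.37 (0.984 to 1.89) and Ccr4 at 1.17 (0.712 to 1.86), neither called. Fut7, whose enzyme builds selectin ligands for entry into skin and inflamed tissue, had 25 UMIs in 16 cells against 27 UMIs in the others, a ratio of 17.9 (9.96 to 32.0).

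Adhesion genes were higher as well over all cells, while within ribosome-poor cells the counts were near the shares over all genes. Of 16 measured integrins and adhesion genes 11 were higher and 0 lower, with a median log2 ratio of 1.09, against 14.8 and 3.07% over all genes. Within ribosome-poor cells 1 of 13 was higher and 2 were lower, at a median log2 ratio near 0, and within ribosome-rich cells 4 of 13 were higher and 0 lower, at 0.62. Over all genes 11.2% were higher and 8.90% lower in the former class, and 4.65 and 0.779% in the latter. The one that was higher in ribosome-poor cells was Itgae, the integrin chain CD103 that binds E-cadherin, itself a ligand of KLRG1. Itgae had 43 UMIs in 28 of the 141 cells and 84 in the others, a ratio of 9.90 (6.69 to 14.5), and 2.32 (1.48 to 3.61) in ribosome-poor cells. Itgb7, its partner chain, was at 2.87 (2.57 to 3.20), and 1.26 (1.10 to 1.44) in ribosome-poor cells. Itgb1 went from 3.07 (2.31 to 4.01) over all cells to 0.912 (0.662 to 1.24) in them.

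Genes that effector Tregs use were higher overall and mixed within ribosome-poor cells. Of 12 measured effector Treg genes 10 were higher and 0 lower, with a median log2 ratio of 1.77, against 14.8 and 3.07% over all genes. Within ribosome-rich cells 8 of 10 were higher, against 4.65% of all genes there. Within ribosome-poor cells 1 of 11 was higher and 1 lower, shares near the 11.2 and 8.90% over all genes there. Icos, a costimulatory receptor, was found in 92 of the 141 cells and had a ratio of 5.63 (4.82 to 6.55), with 5.12 (3.72 to 6.90) in ribosome-rich and 1.46 (1.21 to 1.76) in ribosome-poor cells. Tnfrsf9, the costimulatory receptor 4-1BB, went from 3.15 (2.60 to 3.79) to 0.953 (0.732 to 1.23) in ribosome-poor cells, and Pdcd1, the inhibitory receptor PD-1, from 3.77 (2.50 to 5.54) to 0.763 (0.402 to 1.36). Batf, a transcription factor of effector Tregs, was called in all 3 settings, at 1.91 (1.42 to 2.52), 1.91 in ribosome-poor cells and 1.93 in ribosome-rich ones. All 10 measured effector transcription factors were higher over all cells, Rora (5.19, 3.68 to 7.20) and Prdm1 (4.83, 2.48 to 8.80) the most. In ribosome-poor cells 2 of 7 were still higher, Batf and Rora (1.74, 1.12 to 2.67). Lag3 (1.12, 0.400 to 2.51) and Cd83 (1.10, 0.593 to 1.88), activation genes of the effector list, were not called over all cells, and Lag3 was lower in ribosome-poor cells (0.272, 0.0851 to 0.674). Of 8 measured genes of nonlymphoid-tissue Tregs 5 were higher and 0 lower: Ccr2, Rora, Itgav (2.48), Dgat1 (2.26) and Gata3 (1.82, 1.39 to 2.34). Within ribosome-poor cells 2 of 4 were higher and within ribosome-rich cells 3 of 7, with 0 lower in either.

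Another group was that of S100 proteins, galectins and annexins, small calcium- or sugar-binding proteins of motile, differentiated lymphocytes. Over all cells 7 of 12 measured members were higher and 0 lower, with a median log2 ratio of 1.33. Within ribosome-poor cells 8 of 10 were higher, at a median of 1.53, and within ribosome-rich cells 5 of 11, at 0.36. The shares of all genes that were higher were 14.8, 11.2 and 4.65% in that order. S100a6 had 621 UMIs in 90 of the 141 cells and a ratio of 10.98 (9.94 to 12.1), with 3.06 (2.70 to 3.46) in ribosome-poor cells and 7.42 (5.95 to 9.16) in ribosome-rich ones. S100a4 was at 10.6 (9.14 to 12.3) and 3.96 (3.26 to 4.81) in ribosome-poor cells. Lgals3, the gene of galectin 3, had 46 UMIs in 16 cells against 32 in the others, a ratio of 27.8 (17.3 to 45.1), and 6.71 (3.87 to 12.02) in ribosome-poor cells. Lgals1 was at 4.79 (4.38 to 5.23) and 4.32 (3.78 to 4.95). Crip1, a small LIM domain protein gene, had 1020 UMIs in 103 cells and 154 in 1 of them, at 3.45 (3.23 to 3.69) over all, 4.87 (4.36 to 5.44) in ribosome-poor cells and 1.39 (1.19 to 1.62) in ribosome-rich ones. Among further leading genes, Lgmn, a lysosomal protease, was at 13.9 (10.0 to 19.1) and Glrx, glutaredoxin, at 8.00 (6.51 to 9.79). In ribosome-poor cells they were at 3.38 and 3.63.

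**Figure D2:**
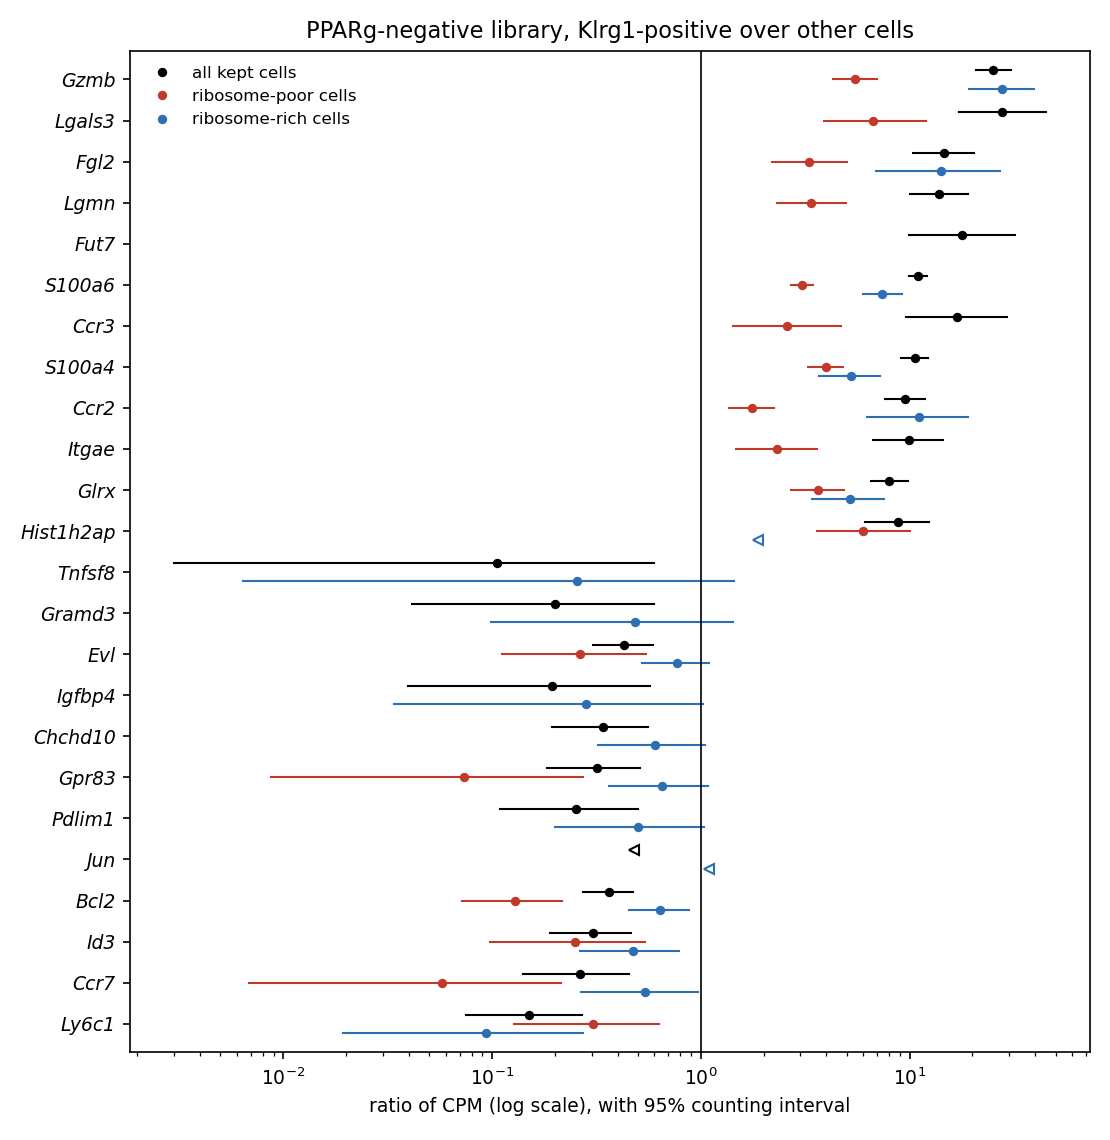
Ratios of CPM of the 141 Klrg1-positive cells over the 2492 other cells of the PPARg-negative library, on a log axis with 95% counting intervals, over all cells (black) and within ribosome-poor (red) and ribosome-rich (blue) cells, for 12 genes at each end, ranked by the end of the interval that is closer to 1. Open triangles mark the upper bound where the Klrg1-positive cells had 0 UMIs, and settings with under 50 UMIs are left out; for each of the 12 higher genes with a red point, that point lies left of the black one.

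Genes of resting Tregs were lower. Of 14 measured members 9 were lower and 1, Il7r (2.07, 1.67 to 2.54), was higher, with a median log2 ratio of -1.30. The direction of the list was the same within ribosome-poor cells, with 7 of 11 lower and 0 higher at -0.86, and within ribosome-rich cells, with 6 of 14 lower and 1 higher at -0.78. The shares of all genes that were lower were 3.07, 8.90 and 0.779% in that order. Ccr7, which takes T cells into lymph nodes, had 13 UMIs in 10 of the 141 cells and 951 in the others, a ratio of 0.264 (0.140 to 0.454), and 0.0576 (0.00688 to 0.213) in ribosome-poor cells. Ly6c1 was at 0.151 (0.0752 to 0.271), a count that its near-identical neighbour Ly6c2 makes uncertain. Bcl2, the survival gene, had 54 UMIs in 19 cells against 2876 in the others, a ratio of 0.363 (0.272 to 0.475), with 0.130 (0.0718 to 0.217) in ribosome-poor cells and 0.641 (0.455 to 0.879) in ribosome-rich ones. Other lower genes were Id3 (0.304, 0.190 to 0.463), Tcf7 (0.409, 0.241 to 0.650) and Satb1 (0.402, 0.254 to 0.606), transcriptional regulators of naive and memory T cells, and the receptor gene Gpr83 (0.317, 0.184 to 0.510). Jun, of the AP-1 family, had 0 UMIs in the 141 cells and 150 in the others, at least 2.59-fold lower against a floor of 3 counts over the group. Klf2 and S1pr1, which keep T cells in circulation, were not called over all cells, at 0.797 (0.695 to 0.910) and 0.8002 (0.563 to 1.11). Within the classes they were split. S1pr1 was lower in both, at 0.642 (0.411 to 0.971) in ribosome-poor cells and 0.528 (0.252 to 0.977) in ribosome-rich ones, and Klf2 was lower in the latter (0.632, 0.499 to 0.789).

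Proliferation genes were higher, in very few cells. Of 11 measured cell cycle genes 6 were higher and 0 lower, but 28 of the 49 Stmn1 UMIs and 12 of the 23 Birc5 UMIs stood in 1 cell. The same holds for Hist1h2ap, where 37 of 49 UMIs were in 1 cell and other histone copies can share reads, and for Parp1, where 40 of 55 were. In all, 4 of the 141 cells (2.84%, 0.779 to 7.10%) and 11 of the 2492 others (0.441%, 0.221 to 0.788%) had 3 or more UMIs of 8 genes of cycling cells together. For other pathways the shares over all genes are 14.8% higher and 3.07% lower. Of 12 measured interferon response genes 1 was higher, of 16 NF-kB pathway genes 3, and of 11 T cell receptor response genes 2 were higher and 2 lower. Of 6 measured genes of KLRG1 ligands and signalling 1 was higher, a share near that over all genes. It was Inpp5d, whose phosphatase SHIP-1 is recruited by inhibitory receptors, at 2.16 (1.35 to 3.30), and 0.909 (0.462 to 1.68) in ribosome-poor cells. The other killer cell lectin-like receptors gave 1 UMI in the 141 cells, of Klrb1c, and none of 12 was measured, so no other member of the family could be compared.

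At equal depth the list levels of the groups overlapped. Thinned to 750 UMIs, 129 of the 141 cells had a mean of 3.48 UMIs of the effector list, against 1.09 in 2265 other cells, 6.99 in 803 Klrg1-positive PPARg-low cells and 4.49 in 578 other PPARg-low cells. The 141 cells thus lay between the other cells of their library and the whole of the PPARg-low library. The resting list had means of 1.68, 2.72, 1.05 and 1.20 in the same order, again with the Klrg1-positive PPARg-negative cells between. The S100, galectin and annexin list did not follow that order, with 5.98, 1.88, 4.83 and 3.83, and neither did the chemokine receptor list, with 1.56, 0.663, 0.880 and 0.770: the Klrg1-positive PPARg-negative cells had the highest mean of the 4 groups in both. For the S100 list this rank was not seen in every part of the 141 cells. From summed counts in ribosome-rich cells they were at 4573 CPM, below 7336 in Klrg1-positive and 5358 in other PPARg-low cells. In ribosome-poor cells they were highest, at 13132 against 7508 and 5538 CPM. Those with 1 Klrg1 UMI had a mean of 3.94 at 750 UMIs, below the 4.83 of all Klrg1-positive PPARg-low cells. The cytotoxic and Th1-like list had 1.95, 0.573, 1.74 and 1.57. Against the other cells of their library the ratio of list UMIs was 3.20 (2.89 to 3.55) for the effector list, 2.74 (2.28 to 3.26) for the nonlymphoid-tissue list and 0.618 (0.537 to 0.708) for the resting list. In ribosome-poor cells the first of these was 1.25 and the second 1.63.

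**Figure D3:**
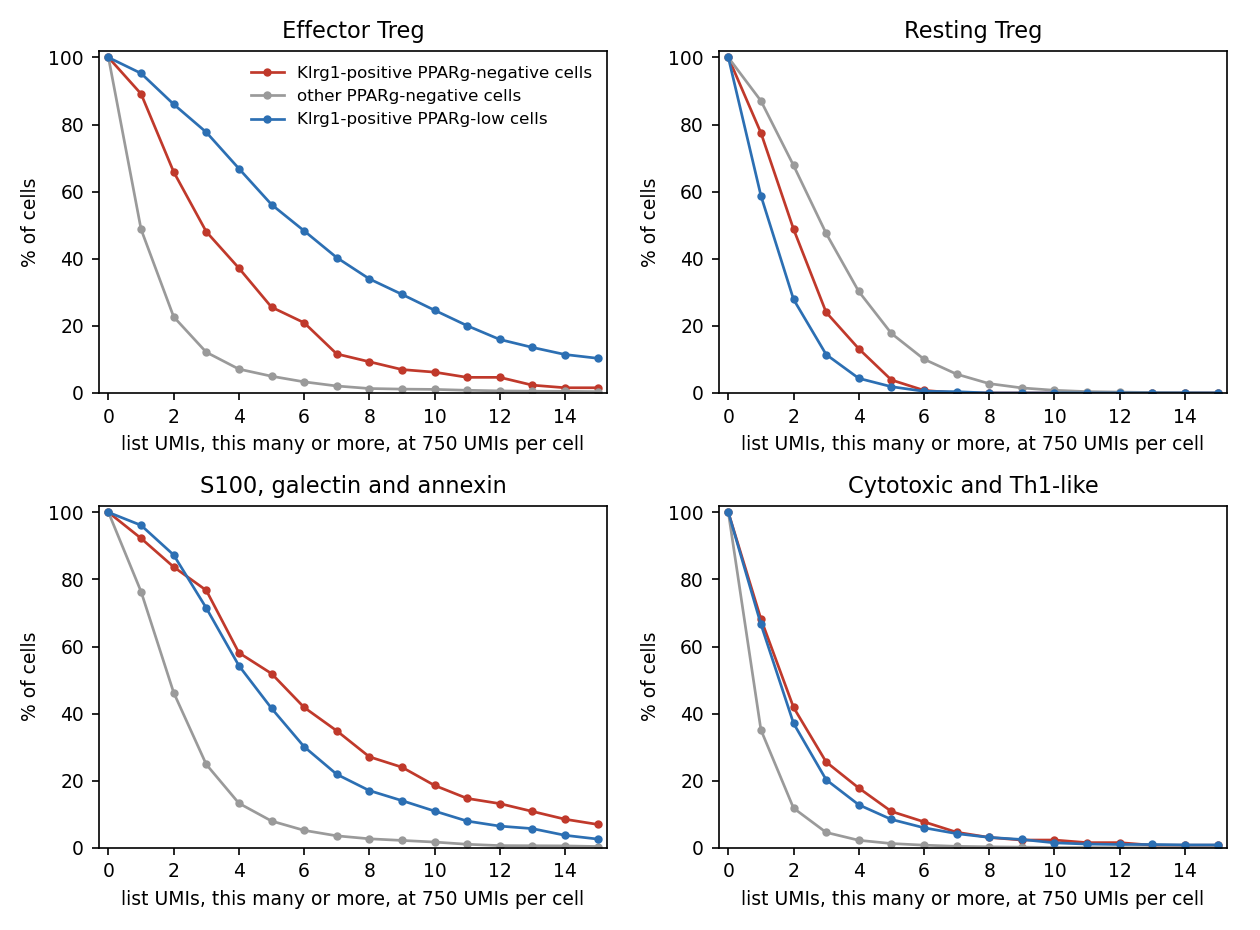
Each panel gives the percentage of cells (vertical axis) with at least the number of list UMIs on the horizontal axis, after thinning to 750 UMIs per cell, for 129 Klrg1-positive PPARg-negative cells (red), 2265 other PPARg-negative cells (grey) and 803 Klrg1-positive PPARg-low cells (blue). The red line lies between the other lines in the effector panel and, up to 6 UMIs, in the resting panel, and, from 3 UMIs on, above both in the S100 panel.

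The 141 cells were not uniform: cells with 2 or more Klrg1 UMIs had more UMIs of the S100, effector and cytotoxic lists and fewer of Bcl2 and Ccr7. The split is on the gene that chose the cells and is a description; it and the clusters below were examined after seeing the data. The 72 cells with 1 Klrg1 UMI and the 69 with 2 or more had medians of 1608 and 1766 UMIs, so depth was close, but 54.2 and 81.2% were ribosome-poor. At 750 UMIs per cell the S100, galectin and annexin list had means of 3.94 and 7.87 UMIs, the effector list 2.69 and 4.21, and the cytotoxic list 1.44 and 2.43, while the resting list had 1.81 and 1.57. Gzmb was found in 12 cells with 1 Klrg1 UMI (16.7%) and 31 with 2 or more (44.9%), Ccr2 in 17 (23.6%) and 37 (53.6%), and S100a6 in 31 (43.1%) and 59 (85.5%). Bcl2 went the other way, with 52 UMIs in 17 cells against 2 UMIs in 2 cells, and Ccr7 had 12 against 1 UMI. The Bcl2 and Ccr7 transcripts of the 141 cells thus sat mostly in cells with a single Klrg1 UMI.

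Clustering of the library without Klrg1 placed nearly all depth-matched Klrg1 detection in 3 of 12 clusters. Cluster 1, led by Ccr2, S100a6, Gzmb, Ccr4 and Itgae, held 74 of the 141 cells, and cluster 5, led by Pdcd1, Ccl5, Penk, Tnfrsf9 and Lag3, held 38. A small cluster 11, led by the cell cycle genes Birc5, Top2a and Rrm2, held 5. At 750 UMIs per cell Klrg1 was found in 51 of 308 cells of cluster 1 (16.6%, 12.6 to 21.2%), 28 of 225 of cluster 5 (12.4%, 8.43 to 17.5%) and 4 of 12 of cluster 11 (33.3%, 9.92 to 65.1%). In the other 9 clusters together it was found in 3 of 1849 cells (0.162%, 0.033 to 0.473%). Without thinning those shares were 21.8, 15.6, 38.5 and 1.18%. No cluster was led by markers of another cell type, so none was used to read free RNA from. The background of Klrg1 detection was not measured. The 9 clusters were pooled after their low share was seen. Cluster 2, of 263 cells with 85.6% ribosome-poor ones and a median of 760 UMIs, had 1 positive cell of 138 at 750 UMIs (0.725%), while cluster 1 was 65.5% ribosome-poor. Resolution 0.6 merged clusters, so that 81.6% of the 141 cells fell in the fullest one, against 52.5% here.

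**Figure D4:**
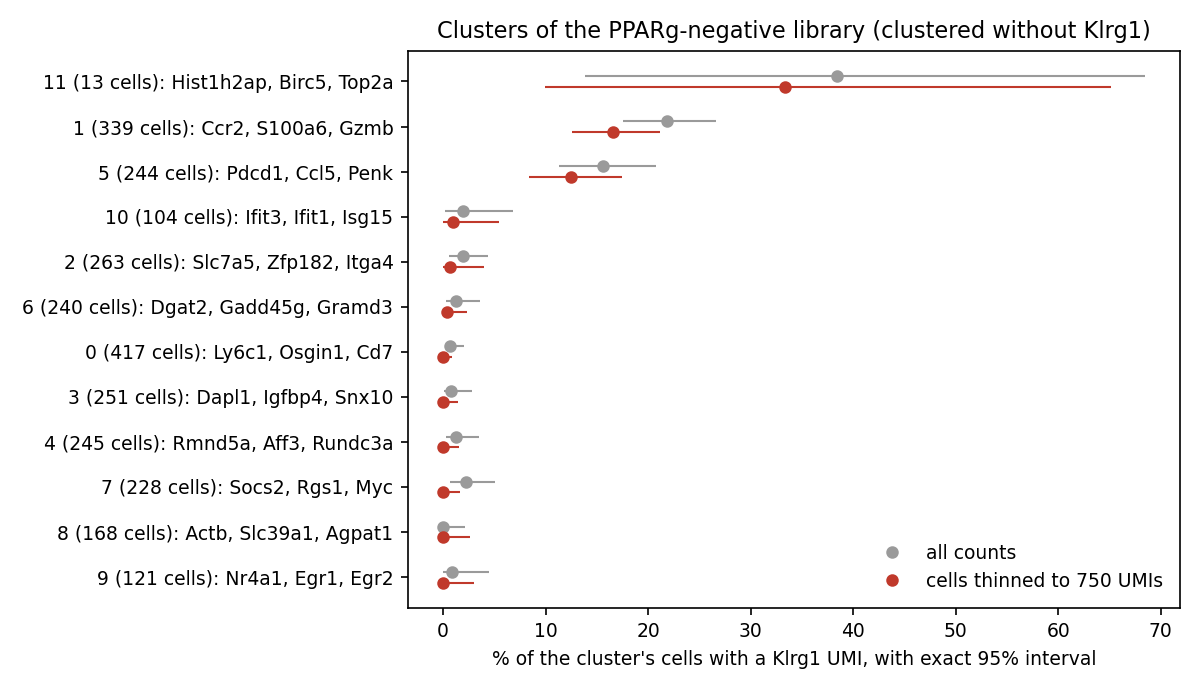
Percentage of the cells of each cluster of the PPARg-negative library with a Klrg1 UMI, with exact 95% intervals, over all counts (grey) and after thinning to 750 UMIs per cell (red); clusters are named by number, size and 3 leading genes, and Klrg1 was not used to make them. Clusters 11, 1 and 5 lie at 33.3, 16.6 and 12.4% after thinning and the other clusters at 0 to 1.01%.

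Klrg1-positive cells of the 2 main clusters carried different genes. Those genes also made the clusters, so these values are a description. Gzmb was found in 32 of the 74 cells in cluster 1 (43.2%) and 6 of the 38 in cluster 5 (15.8%), Itgae in 24 and 4 cells, and Pdcd1 in 6 and 10. Klf2 was found in 49 cells of the former (66.2%) and 4 of the latter (10.5%). These shares are not at matched depth. The cells of cluster 1 had a median of 1671.5 UMIs and those of cluster 5 of 1254, and 82.4 and 60.5% were ribosome-poor. The part of depth in these shares was not tested. The 29 cells elsewhere, among them the 5 of cluster 11, had a median of 2379 UMIs, were 37.9% ribosome-poor and held 48 of the 54 Bcl2 UMIs. Their effector list mean at 750 UMIs was 1.13, from 26 UMIs in the 23 cells deep enough. That was close to the 1.09 of the library's Klrg1-negative cells, against 3.13 in cluster 1 and 5.67 in cluster 5.

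Compared within a cluster, Klrg1-positive cells still differed from their neighbours. In cluster 1, 134 of 1849 measured genes (7.25%) were higher in the 74 Klrg1-positive cells than in the 265 others and 81 (4.38%) lower. Gzmb had 193 against 93 UMIs there, a ratio of 6.67 (5.18 to 8.63), Fgl2 was at 4.53 (2.95 to 7.01), Lgals3 at 4.38 (2.44 to 7.97) and S100a6 at 2.64 (2.34 to 2.99). Bcl2 was at 0.105 (0.0125 to 0.397, 2 against 61 UMIs), Id3 at 0.132 (0.0266 to 0.401) and Izumo1r, the folate receptor 4 gene that marks Tregs, at 0.419 (0.312 to 0.555, 56 against 429 UMIs). Parp1 led the higher genes at 12.1, through the 1 cell named above, and Cd74, the invariant chain of antigen presentation, was at 2.86 (2.13 to 3.84). Klrg1-positive cells of this cluster were deeper, with a median of 1672 against 1351 UMIs, and more often ribosome-poor, 82.4 against 60.8%, so the part of both in these ratios was not tested.

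In cluster 5 fewer genes were called, and Gzmb was not among them, at 1.17 (0.477 to 2.51). Of 1350 measured genes 63 (4.67%) were higher in the 38 Klrg1-positive cells than in the 206 others and 38 (2.81%) lower. Among the higher genes Tnfrsf4, the costimulatory receptor OX40, was at 2.09 (1.79 to 2.43, 222 against 700 UMIs), Ctla4 at 2.21 (1.56 to 3.09), Il7r, the interleukin 7 receptor, at 2.57 (1.51 to 4.22) and S100a6 at 1.99 (1.39 to 2.80). Lag3 had 1 against 49 UMIs, a ratio of 0.135 (0.00334 to 0.785), and Izumo1r was lower here too, at 0.627 (0.494 to 0.786). Here the Klrg1-positive cells were the shallower ones, with a median of 1254 against 1918 UMIs, and 60.5 against 41.7% of them were ribosome-poor.

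Set beside the Klrg1-positive cells of the PPARg-low library, the 141 cells were richer in Gzmb, Ccr2, Klf2, Ms4a4b and Crip1 and poorer in Penk, Pdcd1, Lag3, Tnfrsf9, Il10 and Ccr8. Of 4834 measured genes 248 (5.13%) were higher in the PPARg-negative cells and 265 (5.48%) lower, with a median log2 ratio of -0.03. Within ribosome-poor cells 240 of 2938 (8.17%) were higher and 215 (7.32%) lower, and within ribosome-rich cells 73 of 2734 (2.67%) and 155 (5.67%). These cells were selected by the same rule in both libraries and had close depths, but 4.81 against 3.54% mitochondrial UMIs, whose part in the result was not tested.

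Among the higher genes Gzmb was at 3.29 (2.81 to 3.86), or 862 against 262 CPM, with 2.61 (2.18 to 3.13) in ribosome-poor cells and 4.06 (2.88 to 5.68) in ribosome-rich ones. Ccr2 was at 3.65 (2.89 to 4.61), 3.10 and 3.25, and Itgae at 2.92 (1.97 to 4.27). These 3 genes were also among the 12 highest against the other PPARg-negative cells. Among chemokine and egress receptors 7 of 11 were higher, such as Ccr6 (4.89, 2.71 to 8.75), Ccr4 (2.95, 1.83 to 4.66) and Cxcr3 (2.34, 1.77 to 3.05), and 1, Ccr8, a receptor of tissue Tregs, was lower at 0.0798 (0.00957 to 0.294, 2 against 143 UMIs). Within ribosome-poor cells 4 of 9 such receptors were higher and 1 lower, and within ribosome-rich cells 2 of 5 were higher and 0 lower. Of all genes 5.13, 8.17 and 2.67% were higher in all, ribosome-poor and ribosome-rich cells, and 5.48, 7.32 and 5.67% lower. Of 8 measured resting genes 7 were higher and 0 lower, with a median log2 ratio of 0.97. Within the classes 3 of 7 resting genes were higher in ribosome-poor and 4 of 7 higher and 1 lower in ribosome-rich cells. Satb1 led them at 4.69 (2.58 to 8.44), Klf2 was at 2.96 (2.51 to 3.48) with 3.34 and 2.42 in the 2 classes, and S1pr1 was at 1.95 (1.31 to 2.85). Bcl2, on the same list, was at 1.96 (1.41 to 2.69), but at 0.171 among cells with 2 or more Klrg1 UMIs in both libraries and 0.857 (0.458 to 1.502) in ribosome-poor cells. Ms4a4b, a T cell membrane protein gene, was at 2.87 (2.55 to 3.23), 2.51 and 2.84.

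Other genes were higher in 1 class of cells. Crip1 was at 2.49 (2.32 to 2.69) over all and 3.83 (3.49 to 4.21) in ribosome-poor cells, and at 0.955 (0.811 to 1.12) in ribosome-rich cells. Over all genes 5.13% were higher, 8.17% were higher in ribosome-poor cells and 5.67% lower in ribosome-rich cells. Of the S100, galectin and annexin list 3 of 12 were higher over all, 4 of 11 higher in ribosome-poor cells and 6 of 11 lower in ribosome-rich cells. Lgals3 showed it most, at 2.06 (1.41 to 2.98) and 0.228 (0.0270 to 0.856). The 4 higher and 1 lower of 13 cell cycle genes over all likewise split into 5 higher of 8 in ribosome-poor and 4 lower of 7 in ribosome-rich cells. Single cells held much of the Stmn1, Birc5 and Hist1h2ap counts, as above, and their part in this split was not tested.

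Lower in the 141 cells were activation and effector genes. Of 14 measured effector Treg genes 9 were lower and 1 higher, with a median log2 ratio of -1.24, and the direction was the same in ribosome-poor (7 of 12 lower) and ribosome-rich cells (7 of 11 lower). The shares of all genes that were lower were 5.48, 7.32 and 5.67% in that order. Pdcd1 had 32 UMIs in 16 of the 141 cells and 898 in 440 of the 899 PPARg-low cells, a ratio of 0.203 (0.138 to 0.289), with 0.115 (0.0637 to 0.190) in ribosome-poor cells and 0.401 (0.230 to 0.652) in ribosome-rich ones. Lag3, another inhibitory receptor, had 6 against 345 UMIs, a ratio of 0.0992 (0.0362 to 0.218), and Cd83 was at 0.132 (0.0717 to 0.223). Tnfrsf9 was at 0.287 (0.239 to 0.342) and Tnfrsf4 at 0.465 (0.420 to 0.513). By contrast Icos (1.37, 1.17 to 1.58), Maf (0.948, 0.759 to 1.17) and Prdm1 (0.918, 0.482 to 1.62) were not called. Over the whole list at 750 UMIs per cell the ratio was 0.498 (0.452 to 0.549).

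Of 15 measured genes of nonlymphoid-tissue Tregs 7 were lower and 1, Ccr2, was higher, with a median log2 ratio of -1.37. The ribosome-poor cells showed this, with 7 of 12 lower and 1 higher at -1.14. In ribosome-rich cells 4 genes could be measured, of which 1 was higher and 1 lower, at 0.31. For this list and the others below, 5.48, 7.32 and 5.67% of all genes were lower in all, ribosome-poor and ribosome-rich cells. Those higher were 5.13, 8.17 and 2.67%. Il10 had 3 against 185 UMIs, a ratio of 0.0925 (0.0189 to 0.275), Il1r2, the decoy receptor for interleukin 1, was at 0.169 (0.0454 to 0.443) and Gata3, a transcription factor of tissue Tregs, at 0.388 (0.298 to 0.497). Penk, which encodes an enkephalin precursor, had 32 UMIs in 9 cells, 13 of them in 1 cell, against 1198 in 215 cells, a ratio of 0.152 (0.104 to 0.216). Jun had 0 against 144 UMIs, at least 8.41-fold lower, and F13a1, the coagulation factor XIII gene, 0 against 100 UMIs, at least 5.84-fold lower, both against a floor of 3 counts over the 141 cells. Of 10 measured T cell receptor response genes 6 were lower and 0 higher, 4 of 8 being lower in each class, among them Fos (0.126, 0.0256 to 0.376), Dusp1 (0.180, 0.0978 to 0.306) and Junb (0.487, 0.398 to 0.591). Such early genes also respond to handling of cells, and the part of the 2 separate sorts was not tested. The cytotoxic list was mixed: Gzmb and Cxcr3 were higher, while Ccl5 (0.410, 0.309 to 0.534), Nkg7 (0.291, 0.161 to 0.488) and Cst7 (0.3003, 0.207 to 0.422) were lower.

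**Figure D5:**
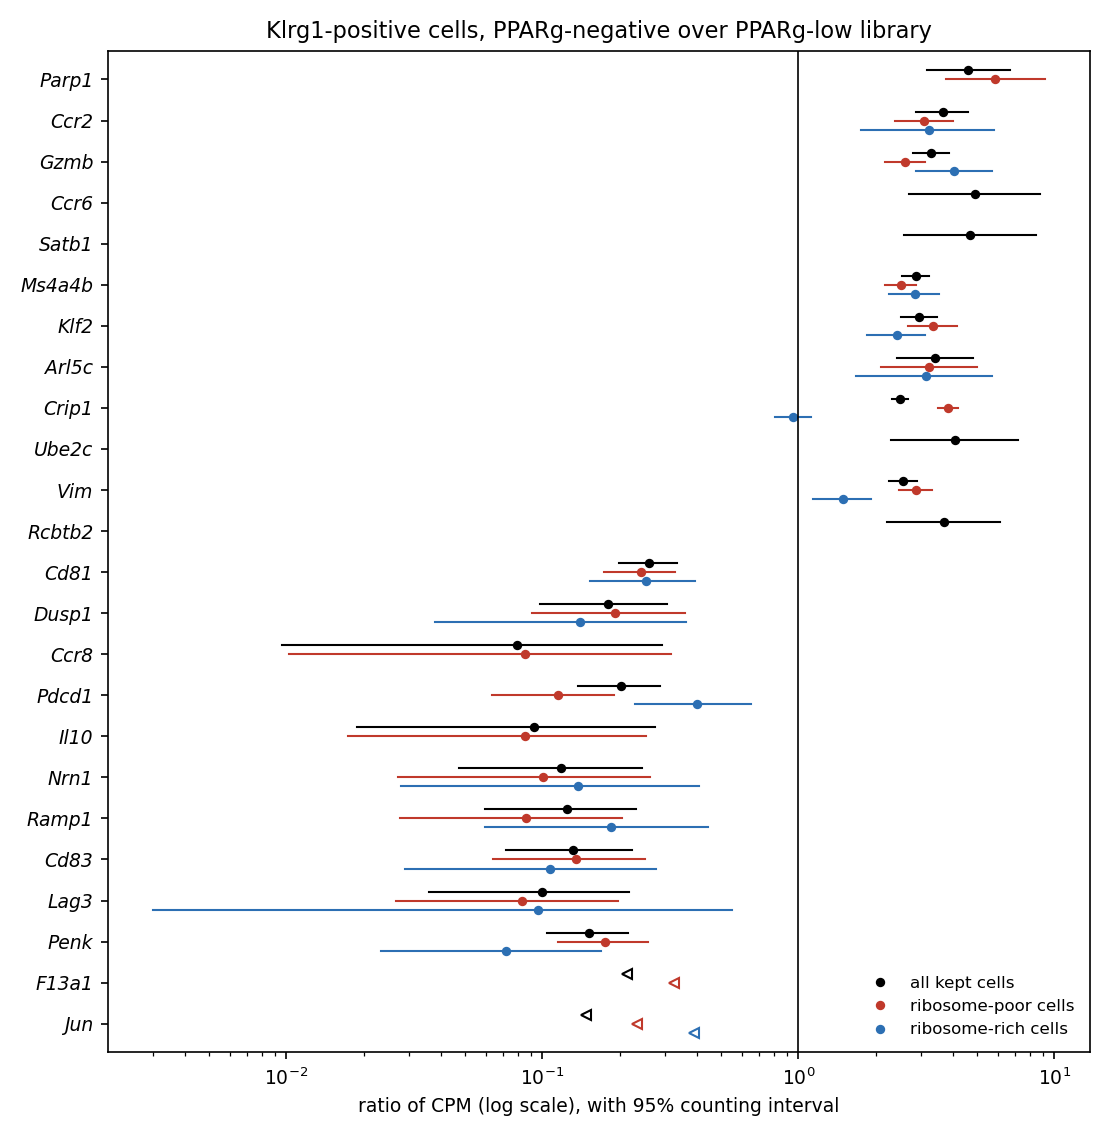
Ratios of CPM of the 141 Klrg1-positive PPARg-negative cells over the 899 Klrg1-positive PPARg-low cells, on a log axis with 95% counting intervals, for the 12 highest and 12 lowest genes; colours and triangles are as in the plot for the PPARg-negative library. Every lower gene lies left of 1 in each setting drawn, while Crip1 is at 0.955 in ribosome-rich cells; 40 of the 55 Parp1 UMIs were in 1 cell.

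Combinations of markers were also read in single cells at matched depth; they were chosen after seeing the data. Gzmb, Ccr2 or Itgae was found in 57 of 129 Klrg1-positive PPARg-negative cells at 750 UMIs (44.2%, 35.5 to 53.2%), in 5.30% of the other PPARg-negative cells, and in 16.9% of the Klrg1-positive and 8.82% of the other PPARg-low cells. Il10, Ccr8 or Lag3 was found in 3.10, 2.21, 22.5 and 13.5% in the same order. Ccr7, Satb1 or Ly6c1 was found in 7.75, 32.8, 1.49 and 4.50%. Without thinning 74 of the 141 cells had a UMI of the first set, 10 of the second and 31 of the last, 48 had none of the 3 sets, and 7 had both of the first 2.

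Over all cells, the same split on Klrg1 in the PPARg-low library put fewer genes past the same limits. Of 6049 measured genes 207 (3.42%) were higher in its 899 Klrg1-positive cells than in its 720 others and 118 (1.95%) lower. Gzmb was at 2.67 there and 25.2 in the PPARg-negative library, Ccr2 at 1.88 and 9.55, S100a6 at 1.82 and 10.98, and Lgmn at 3.21 and 13.9. Ribosome-poor shares were 67.4 and 21.2% for Klrg1-positive and other PPARg-negative cells, but 62.5 and 55% for those of the PPARg-low library. Within ribosome-poor cells the PPARg-negative ratios of these genes were smaller, as given above. Within ribosome-rich cells those of Gzmb and Ccr2 were not. The part of this make-up in the gap between the libraries was not tested. Among lower genes Ccr7 was at 0.0962 and 0.264, Tcf7 at 0.188 and 0.409, Id3 at 0.307 and 0.304 and Bcl2 at 0.591 and 0.363. Of 5917 genes measured in both, 175 were higher in the PPARg-low contrast, of which 87 (49.7%) were also higher in the PPARg-negative one, or 8.65% of the 1006 higher there. Those 1006 were 17.0% of all 5917 genes. Of 117 lower genes 21 (17.9%) were lower in both, or 10.995% of 191, which were 3.23% of all 5917. Within ribosome-poor cells 9 of 38 higher genes (23.7%, against 11.2% over all genes) were shared. So were 20 of 61 lower ones (32.8%, against 8.48%). Within ribosome-rich cells 38 of 131 higher genes (29.0%, against 6.01%) and 8 of 84 lower ones (9.52%, against 1.18%) were shared. Those 84 were 2.07% of the genes measured in both libraries in this class, more than the 48 (1.18%) lower in the PPARg-negative contrast. Over the 5917 genes Spearman's rho of the log2 ratios was 0.27 and Pearson's r 0.32, across genes and with no test; the contrasts share no cells.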

How the data were processed

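Per the labels' protocols, the sorted Tregs of each group went through 1 Chromium 3′ v2 run. The authors deposited 1 matrix of raw UMI counts per library, with 28692 genes, made with Cell Ranger 2.1.0 on mm10 per the submitters' processing notes. The sources used here do not give the annotation or the cell calling. The libraries held 2902 PPARg-negative and 1992 PPARg-low barcodes; 269 and 373 exceeded 10% mitochondrial UMIs and were dropped, which left 5897260 and 2901710 UMIs. The libraries share 5 barcode sequences. No UMI cut was set, and Scrublet in scanpy 1.11.5 marked 8 and 11 kept cells, which stayed in.

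Counts were summed per group (290051, 5607209 and 1654860 UMIs in the Klrg1-positive and other PPARg-negative and the Klrg1-positive PPARg-low cells) and compared as CPM ratios with exact conditional binomial 95% intervals. Deep cells weigh more in such sums. Shares have exact binomial intervals. Thinning to 750 UMIs left out 12 Klrg1-positive and 227 other PPARg-negative cells. Clusters used 2000 variable genes, 20 components, 15 neighbours and Leiden resolution 1.0 (leidenalg 0.10.2). The ratio and the thinning were tested on simulated data. The tools were pandas 2.3.3, scipy 1.17.1, numpy 2.4.6 and matplotlib 3.10.9 under Python 3.11.15. Klrg1 coordinates come from GENCODE M21.

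The cells, the 33 gene lists and the ribosomal split were chosen with earlier results of these data known. Named genes were Klrg1, Pparg and Foxp3; the 12 highest and 12 lowest per comparison by the interval bound nearest to 1, without antigen receptor, mitochondrial and ribosomal, sex-linked, predicted and other-cell-type genes; up to 6 members per list by the same order, or all of a list with 5 or fewer called; and the 15 most often detected genes of 4 lists. Genes outside it (among them Itgav, Dgat1, Cd8a, Klrb1c, Malat1 and those of the comparisons within clusters) were chosen after their values were seen. Some genes of this rule are summarised by counts.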

Additional observations from a re-analysis of the deposited data

Results flagged for a closer look

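For 5 genes the split of cells on Klrg1 was called in opposite directions in the 2 libraries; the difference between the libraries was not tested, and the libraries share no cells. Ccr6, a chemokine receptor, had a CPM ratio of Klrg1-positive over other cells of 6.19 in the PPARg-negative and 0.570 in the PPARg-low library. Gpr171, a G protein-coupled receptor, was at 2.32 and 0.585, Map7d1, a microtubule-associated protein, at 1.99 and 0.565, Serpina3g, a serine protease inhibitor of activated T cells, at 1.85 and 0.562, and Arl5c at 1.65 and 0.628. With 0.497% of the 1006 genes higher in the PPARg-negative library going the other way, these are few.

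Barcodes with over 10% mitochondrial UMIs, which no comparison used, also held Klrg1: 9 of 269 in the PPARg-negative library (3.35%, exact interval 1.54 to 6.26%) and 148 of 373 in the PPARg-low library (39.7%).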

How the results depend on the processing

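The share of kept PPARg-negative cells with Klrg1, 5.36%, was 4.50% with a 5% mitochondrial limit, 3.59% at 750 UMIs and 2.62% with 2 or more UMIs required. Against the other cells of the library, 1066 genes higher became 246 within ribosome-poor and 310 within ribosome-rich cells, 489 from thinned sums, 594 without ribosomal and mitochondrial genes, 639 at a ratio of 2 and 660 with ratios set against the all-gene median. The 221 lower became 52 in ribosome-rich cells, 421 without ribosomal and mitochondrial genes, 424 from means per cell, 101 at a ratio of 2 and 435 relative to the median. Against Klrg1-positive PPARg-low cells, 248 higher became 73 in ribosome-rich cells, 98 from thinned sums, 159 with 100 or more UMIs and 88 at a ratio of 2; 265 lower became 152 with 2 or more Klrg1 UMIs, 155 in ribosome-rich cells, 163 with cells chosen after thinning and 101 from thinned sums. The effector list ratio of 3.20 within the library was 3.61 with a 5% mitochondrial limit, 3.88 with 2 or more Klrg1 UMIs, 1.25 in ribosome-poor cells, 3.80 with cells chosen after thinning and 2.84 at 500 UMIs, and the nonlymphoid list ratio of 2.74 was 1.63 in the ribosome-poor class and 1.58 in the other. Against PPARg-low cells the effector ratio of 0.498 was 0.567 with a 5% limit and 0.556 with 2 or more Klrg1 UMIs, and in ribosome-rich cells the nonlymphoid ratio went from 0.768 to 0.570 and the resting ratio from 1.60 to 1.99. Spearman's rho of 0.271 was 0.146 in ribosome-rich cells, 0.349 with 100 or more UMIs and 0.178 from means per cell. The fullest cluster's 52.5% of the cells was 81.6% at resolution 0.6 and 77.3% with 30 components. The cause of each change was not tested, beyond the smaller groups that some settings leave.

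Single genes were followed through the alternatives only if named, 171 of them within ribosome-poor cells. Changes of side among the other called genes were not listed. Named genes called higher over other PPARg-negative cells that fell on the other side of 1 within ribosome-poor cells were Cd2 (0.780), Cd28 (0.745), Cd4 (0.673), Cd5 (0.853), Cst3 (0.979), Cst7 (0.649), Ifngr1 (0.747), Il10ra (0.693), Il2rg (0.872), Inpp5d (0.909), Itgav (0.587), Itgb1 (0.912), Jak3 (0.980), Ncor1 (0.980), Nfkb1 (0.943), Nkg7 (0.989), Pdcd1 (0.763), Slamf6 (0.724) and Tnfrsf9 (0.953). In ribosome-rich cells Slamf1 (0.651) and Zbp1 (0.938) did so, and from thinned sums Jak3 (0.717). Of the named genes higher than in PPARg-low cells, Crip1 (0.955), Glrx (0.957), Hmgb2 (0.531), Ikzf3 (0.785), Lgals1 (0.621), Lgals3 (0.228), Lgmn (0.864), S100a4 (0.646), Stmn1 (0.264), Top2a (0.274) and Zbp1 (0.888) did so in ribosome-rich cells. Bcl2 did so in ribosome-poor cells (0.857), with 2 or more Klrg1 UMIs (0.171) and with cells chosen after thinning (0.733), and Hist1h2ap (0.643) and Top2a (0.724) without cycling cells, an alternative added after seeing the data. Of the values of single named genes over all alternatives, 2572 in the first comparison and 2744 in the second kept their direction within the main counting interval, and 410 and 213 left that interval on the same side of 1. No paired analysis was possible because each group is 1 library.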
